A study of Rattus norvegicus with 24 samples.

Results

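Growth hormone acts on the liver through its receptor, Ghr, and the kinase JAK2 bound to it, which activates the transcription factors STAT5A and STAT5B. STAT5 switches on Igf1, the liver-made hormone that carries much of growth hormone's effect on body growth, and Igfals, the subunit that holds IGF1 in a long-lived complex in blood. It also switches on Socs2 and Cish, which encode inhibitors that damp the signal, while BCL6 is a repressor that occupies many of the same sites and whose own gene STAT5 represses in rodent liver. In male rats growth hormone is secreted in pulses, and STAT5 in the liver is activated anew by each pulse. The 8 genes Igf1, Igfals, Ghr, Socs2, Cish, Stat5a, Stat5b and Bcl6 were chosen by name as the ligand, its carrier, the receptor, the transducers, the feedback inhibitors and the opposing repressor of this axis. They are 8 of 22093 genes with a probe set that names a single gene.

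The livers came from male RccHan Wistar rats aged 7 to 8 weeks. The metformin rats received daily gavage of metformin, a glucose-lowering biguanide, at 800 mg/kg until day 1, 3 or 14, and the control rats received the vehicle alone (0 mg/kg metformin; ethanol, Kolliphor HS 15 and tap water) over the same days. Total RNA of 24 livers was hybridised to 24 Affymetrix arrays, 4 rats in each of the 6 groups, although the design states 5 animals per group. All rats ate chow freely and shared cages with 1 or 2 others. No source used here gives the hour of necropsy, the time since the last meal or the dates of scanning.

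Every axis gene had 1 probe set, and all 8 lay above the low-intensity filter on all 24 arrays (log2 intensity above 4.28). Values below are log2 of the deposited intensity, so a difference of 1 is a doubling on the deposited scale. They describe differences of a gene between livers, because probe sets differ in brightness for reasons other than transcript level. Within a group the lowest correlation between any pair of arrays was 0.989, and array medians ran from 5.73 to 5.84. Of 10 hepatocyte markers 9 were measured, led by Alb at a mean of 19.85 and Ttr at 19.43, and none of the 9 was called in any comparison of metformin with control livers.

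Replicate 4 of the control livers at day 1 stood apart in sex-biased genes that growth hormone regulates, as was seen after its values were known. Its Socs2 value was 7.53, against 10.92 to 11.87 in the other 3 control livers of that day, and its Cish value was 5.31, against 8.40 to 11.06. Its Bcl6 value was 11.85, the highest of all 24 livers, against 7.20 to 9.70 in those 3. Other livers were alike in part of these genes. Replicate 4 of the metformin livers of day 1 had 8.65 for Socs2 and 11.49 for Bcl6. Replicate 4 of the control livers of day 3 had 4.63 for Cish and 10.01 for Bcl6. Replicate 4 of the control livers at day 1 also had 16.83 for Cyp2c11, the male-specific cytochrome P450 of rat liver, against 18.49 to 18.98 in the other 3. It had 10.55 for A1bg, a female-biased plasma protein gene, while the other 23 arrays read 4.15 to 5.22. All 6 female-biased genes measured were higher in this liver than in each of the other 23, against 3.96% of all tested genes, and all 5 male-biased genes measured were lower than in the other 3 control livers of day 1, against 27.5% of all tested genes. Of these 5, 2 were lower than in each of the other 23, against 4.97% of all tested genes. Of its Y-linked genes, Uty at 10.55 and Kdm5d at 8.73 lay within the range of the other 23 arrays (10.19 to 11.09 and 8.51 to 9.11), and Ddx3y at 12.26 lay just below it (12.38 to 12.91). Its Igf1, Igfals and Ghr values, at 18.54, 14.02 and 16.87, lay within the range of the other 3. For Socs2, Cish, Bcl6, Irs1, Igfbp1, Cyp2c11, Cyp4a2 and Onecut1 the day 1 difference is given below also without this liver. The liver was picked by its own values, so leaving it out moves Socs2, Cish and Bcl6 away from them by construction. Replicate 4 of the metformin livers of day 1, alike in Socs2 and Bcl6, was kept. These differences describe how much 1 liver weighed and are no separate test of metformin.

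No axis gene was called in any comparison of metformin with control livers. A call here is a Benjamini-Hochberg adjusted p under 0.05 in limma, fitted over all 24 arrays and 19686 genes. Called were 0 of 8 axis genes at day 1, where the share of all tested genes called was 0.0152%, 0 of 8 at day 3, where it was 0.254%, and 0 of 8 at day 14, where it was 3.29%. The mean effect over the 3 days called 0 of 8 as well, beside 3.23% of all genes. At an unadjusted p under 0.05 limma counted 0, 0 and 1 of the 8 at days 1, 3 and 14, the 1 being Stat5b, beside 8.22%, 13.6% and 16.8% of all genes. The median log2 difference of the 8 genes was 0.02, -0.09 and -0.18 at days 1, 3 and 14, and over all tested genes it was 0.02, -0.03 and 0.01. In 22 of 24 comparisons of a gene within a day the metformin and control values overlapped, and the exceptions were Igf1 and Stat5b at day 14, both lower in metformin livers. The metformin livers lay above all control livers in 3.46%, 3.68% and 5.07% of all genes at days 1, 3 and 14, and below them in 1.72%, 3.41% and 3.34%. The effect of metformin was not called to differ between days for any of the 8 genes, where the share of all genes called was 0% for day 3 minus day 1, 1.66% for day 14 minus day 1 and 0.00508% for day 14 minus day 3. At an unadjusted p under 0.05 limma counted 0 of 8 in each of these, beside 10.7%, 14.1% and 7.54% of all genes. At day 1, leaving out replicate 4 of the control livers again called 0 of 8, beside 14 of all 19686 genes.

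**Figure D1:**
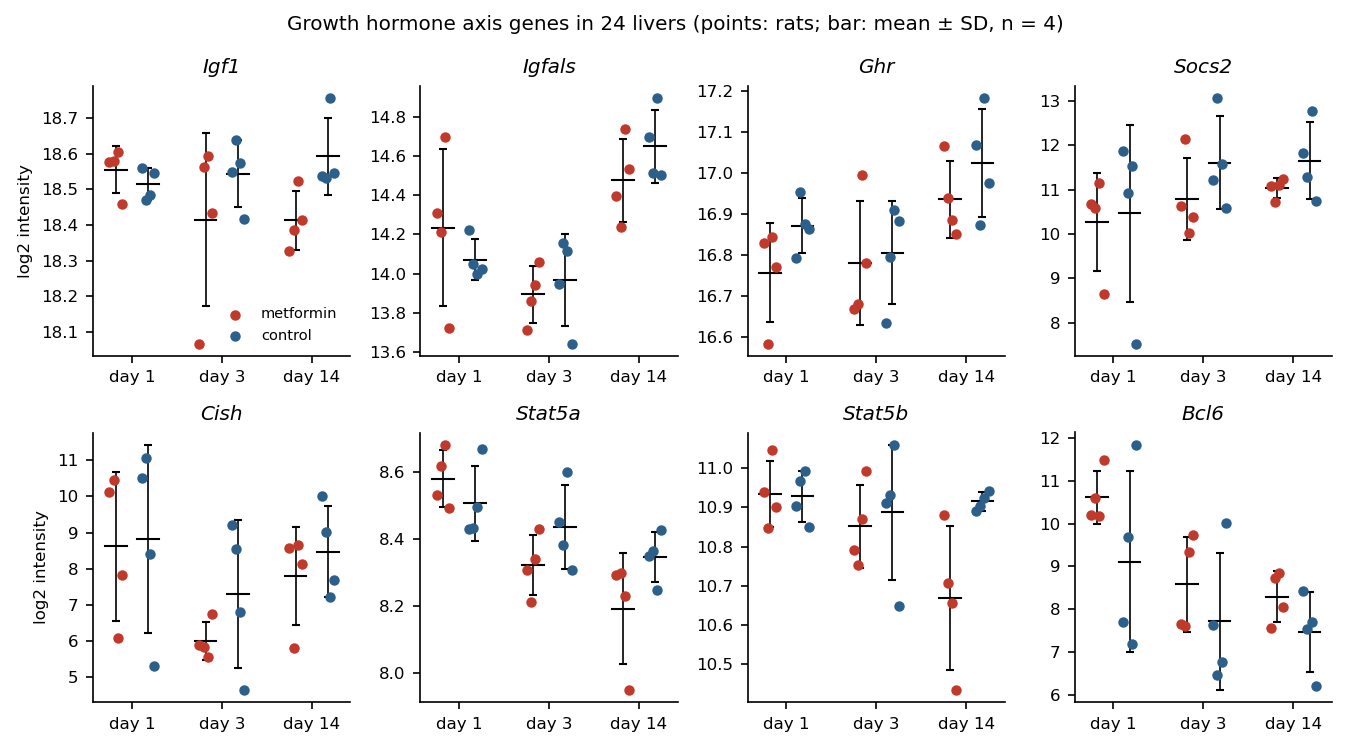
Log2 intensity of the 8 axis genes in each of 24 livers, by day, metformin left of control (points are rats, bars are mean ± SD, n = 4). Igf1, Ghr, Stat5a and Stat5b keep within 1.51-fold to 1.66-fold bands, while Socs2, Cish and Bcl6 range 46.2-fold, 86.2-fold and 50.5-fold.

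Igf1, the ligand, stayed within a 1.61-fold band over all 24 livers. At day 1 it read 18.58, 18.58, 18.60 and 18.46 in metformin livers, against 18.56, 18.47, 18.48 and 18.54 in control livers. The values of day 3 were 18.07, 18.56, 18.59 and 18.43 in metformin livers, against 18.55, 18.64, 18.57 and 18.42 in control livers. The values of days 1 and 3 overlapped, with metformin replicate 1 of day 3 the lowest of all 24. By day 14 the metformin livers read 18.33, 18.39, 18.52 and 18.41, against 18.54, 18.53, 18.75 and 18.54 in control livers. All 4 metformin livers lay below all 4 control livers at that day. The difference was -0.18 ± 0.09 (log2, SE; 95% interval -0.37 to 0.01), a 0.883-fold level, and it was not called (limma adjusted p = 0.330). Normalizing the arrays to each other again moved the difference to -0.058 by quantiles and -0.079 by cyclic loess. The differences at days 1 and 3 were 0.04 and -0.13, with adjusted p of 0.967 and 0.535 in limma.

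Igfals, which encodes the acid-labile subunit of the circulating IGF1 complex, changed with the length of the experiment and was not called between metformin and control. At day 1 it read 14.31, 14.21, 14.70 and 13.72 in metformin livers, against 14.22, 14.05, 14.00 and 14.02 in control livers. At day 3 it read 13.71, 13.86, 13.94 and 14.06 in metformin livers, against 13.95, 14.16, 14.12 and 13.64 in control livers. At both days the groups overlapped. At day 14 it read 14.40, 14.24, 14.74 and 14.54 in metformin livers, against 14.70, 14.51, 14.90 and 14.50 in control livers, again overlapping. The metformin differences were 0.16, -0.07 and -0.17 at days 1, 3 and 14 (SE 0.16 each), with adjusted p of 0.880, 0.858 and 0.653 in limma.

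Between days Igfals was higher in the livers of day 14. In metformin livers it rose by 0.58 ± 0.16 (log2, SE) at day 14 over day 3, which is 1.499-fold (limma adjusted p = 0.0297), and it was the only axis gene called there, where 7.28% of all genes were called. In control livers it rose by 0.69 ± 0.16 at day 14 over day 3, which is 1.61-fold (limma adjusted p = 0.0366), again the only 1 of 8, beside 0.889% of all genes. The 4 control livers of day 14 (14.50 to 14.90) all lay above the 8 control livers of days 1 and 3 (13.64 to 14.22), as did those of 0.615% of all genes, whereas the metformin livers of day 14 overlapped with those of the earlier days. Against day 1 the difference was 0.24 in metformin livers (limma adjusted p = 0.336) and 0.58 in control livers (limma adjusted p = 0.0674), and neither was called. Day 3 against day 1 called 0 of 8 axis genes in metformin livers, beside 1.8% of all genes, and 0 of 8 in control livers, beside 0%. At an unadjusted p under 0.05 limma counted 4 of 8 for metformin livers, beside 17.3% of all genes, and 0 of 8 for control livers, beside 4.71%. Day 14 against day 1 in control livers called 0 of 8, beside 1.82% of all genes, with 1 of 8, Igfals, at an unadjusted p under 0.05, beside 10.1%. With 4 rats a group these calls sat close to the threshold. The call in control livers was lost when any 1 of 7 of the 8 arrays was left out (all but replicate 2 of day 3), with differences from 0.58 to 0.75 and adjusted p up to 0.122 in limma. The call in metformin livers was lost without replicate 1, 2 or 3 of day 3 or replicate 3 or 4 of day 14, with differences from 0.50 to 0.66 and adjusted p up to 0.0933. Of the markers of other liver cells, 1 was called at day 14 against day 3 in metformin livers (Col3a1, lower) and 0 in control livers. Of 10 Kupffer cell markers 3 were above 0 in metformin livers (median -0.19) and 0 in control livers (median -0.42). Of 10 stellate cell markers 1 was above 0 in metformin livers (median -0.23) and 4 in control livers (median -0.28). The medians over all genes were 0.04 and 0.01. The part of these markers in the rise of Igfals was not tested. Rats of day 14 were also older by the days of treatment, and day and age cannot be told apart.

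Ghr, the growth hormone receptor, varied less between livers than the median tested gene. At day 1 it read 16.83, 16.58, 16.84 and 16.77 in metformin livers, against 16.79, 16.96, 16.88 and 16.87 in control livers. The day 3 values were 16.67, 16.68, 17.00 and 16.78 in metformin livers, against 16.63, 16.80, 16.91 and 16.88 in control livers. The day 14 values were 17.07, 16.94, 16.89 and 16.85 in metformin livers, against 17.07, 16.87, 17.18 and 16.98 in control livers. The groups overlapped at each day. The metformin differences were -0.11, -0.02 and -0.09 (SE 0.09), and the 95% interval at day 14, from -0.27 to 0.09, leaves room for a small decrease as well as none. The highest group means were those of day 14, at 16.94 ± 0.09 in metformin livers and 17.03 ± 0.13 in control livers (SD, n = 4 each), and no difference between days was called. In metformin livers day 14 minus day 1 was 0.18 ± 0.09 (limma adjusted p = 0.192), and it was called at 0.31 and 0.27 after another quantile normalization and after cyclic loess (limma adjusted p = 0.0251 and 0.0286). In control livers the same comparison gave 0.15 ± 0.09 (limma adjusted p = 0.627).

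Stat5b, the main growth hormone-activated STAT of male liver, was the axis gene with the smallest p for metformin at day 14. At day 14 it read 10.88, 10.71, 10.66 and 10.43 in metformin livers, against 10.89, 10.90, 10.92 and 10.94 in control livers. The control values lay within 0.05 of each other, and all 4 metformin livers lay below them. The difference was -0.25 ± 0.09 (log2, SE; 95% interval -0.43 to -0.06), a 0.843-fold level, and it was not called (limma adjusted p = 0.143). Leaving out replicate 1 of the metformin livers, the 1 nearest to the control values, moved it to -0.32 with an adjusted p of 0.0445 in limma, which passes the threshold. At day 1 Stat5b read 10.94, 10.85, 11.05 and 10.90 in metformin livers, against 10.90, 10.97, 10.99 and 10.85 in control livers. At day 3 it read 10.79, 10.75, 10.87 and 10.99 in metformin livers, against 10.91, 10.93, 11.06 and 10.65 in control livers. The differences at days 1 and 3 were 0.01 and -0.04, and the difference in effect of day 14 minus day 1, at -0.25 ± 0.13, was not called (limma adjusted p = 0.381).

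Stat5a, the close relative of Stat5b, fell over time in metformin livers. It read 8.53, 8.62, 8.68 and 8.49 in metformin livers at day 1, 8.31, 8.21, 8.34 and 8.43 at day 3, and 8.29, 8.30, 8.23 and 7.95 at day 14. In control livers it read 8.43, 8.43, 8.49 and 8.67 at day 1, 8.45, 8.38, 8.60 and 8.31 at day 3, and 8.35, 8.37, 8.25 and 8.43 at day 14. Every metformin liver of day 14 lay below every metformin liver of day 1, and metformin and control livers overlapped within each day. In metformin livers day 14 minus day 1 was -0.39 ± 0.08 (log2, SE), a 0.764-fold level (limma adjusted p = 0.00357), beside 13.9% of all genes called in that comparison, and the call held without each of the 8 arrays. In control livers the same comparison gave -0.16 ± 0.08 (limma adjusted p = 0.573). The 2 changes were not called to differ (-0.23 ± 0.12, limma adjusted p = 0.413). Markers of other liver cells were also lower in metformin livers at day 14 than at day 1. All 10 Kupffer cell markers (median -0.48; Cd68 and Cd163 called), all 10 of sinusoidal endothelium (median -0.47; Pecam1 called) and 9 of 10 of stellate cells (median -0.29; Lrat, Reln and Col3a1 called) were below 0, beside a median of 0.02 over all genes and 3 of 9 hepatocyte markers above 0 (median -0.08; Apoa1 called). In control livers 7 of 10, 7 of 10 and 6 of 10 were below 0, with no call. Their part in the fall of Stat5a was not tested. The metformin differences within a day were 0.07, -0.11 and -0.15 at days 1, 3 and 14. Stat5b showed -0.26 ± 0.09 in metformin livers at day 14 against day 1 and missed the threshold (limma adjusted p = 0.0515), and without replicate 1 of day 14 it was -0.33 with an adjusted p of 0.0149.

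**Figure D2:**
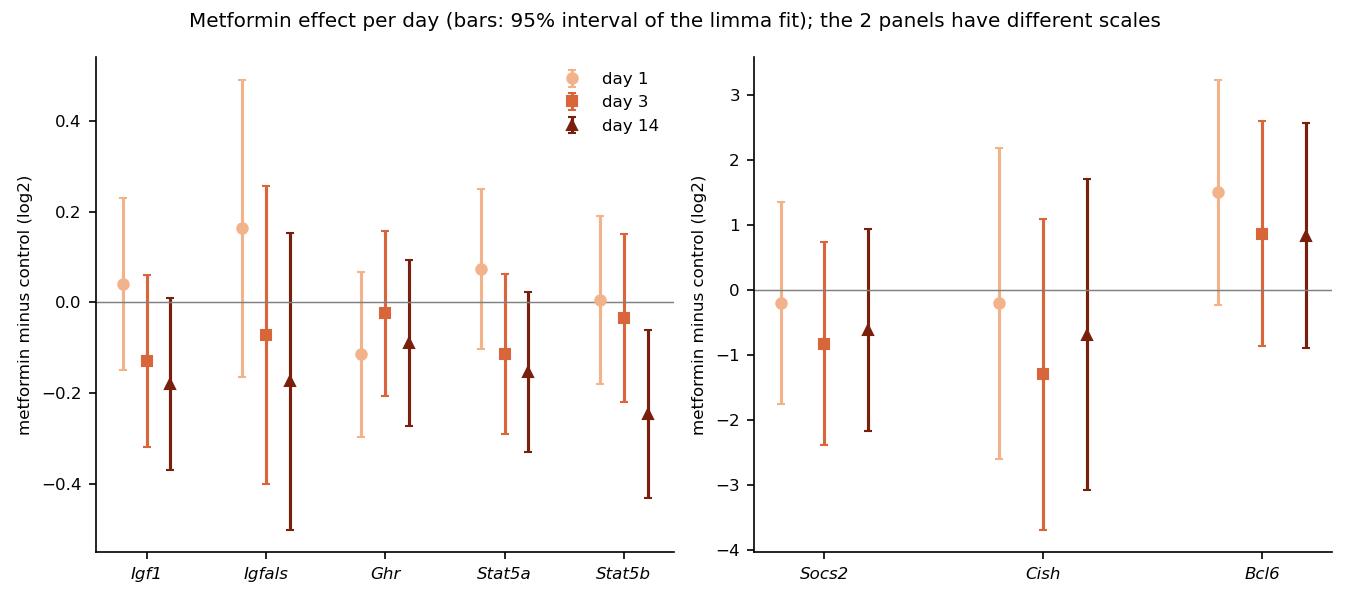
Metformin minus control log2 difference of each axis gene at days 1, 3 and 14, with 95% intervals of the limma fit and a separate scale per panel. The intervals of Igf1, Igfals, Ghr, Stat5a and Stat5b are narrow and, but for Stat5b at day 14, include 0, and those of Socs2, Cish and Bcl6 are several log2 units wide and all include 0.

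Socs2, an inhibitor that binds the activated receptor, ranged 46.2-fold over the 24 livers. At day 1 it read 10.67, 10.59, 11.14 and 8.65 in metformin livers, against 11.87, 10.92, 11.53 and 7.53 in control livers. At day 3 it read 10.63, 12.13, 10.01 and 10.37 in metformin livers, against 11.21, 13.06, 11.58 and 10.58 in control livers. Metformin and control overlapped at both days, with a single low liver in each group of day 1. At day 14 it read 11.09, 10.72, 11.10 and 11.23 in metformin livers, against 11.83, 11.28, 12.77 and 10.73 in control livers. The metformin livers of day 14 kept within 0.51 of each other, and the control livers spanned 2.04, with 3 of them above all 4 metformin livers. The differences were -0.20, -0.82 and -0.62 at days 1, 3 and 14 (SE 0.75), and none was called. Without replicate 4 of the control livers the day 1 difference was -1.18 (limma adjusted p = 0.591).

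Cish, which competes with STAT5 for the receptor, ranged 86.2-fold over the 24 livers, down to 4.63, close to the filter at 4.28. Its promoter is shown with those of Igf1 and Bcl6 because it was the only 1 of the 7 axis genes found in the promoter table that held the STAT5 recognition motif TTCNNNGAA near its start. The windows run from 250 bases before to 50 bases after the RefSeq gene start in the rat assembly GRCr8, all on the plus strand, at chr8:116850719-116851018 for Cish, chr7:24172282-24172581 for Igf1 and chr11:90358503-90358802 for Bcl6. Capitals mark the motif, which reads the same on both strands.
Cish: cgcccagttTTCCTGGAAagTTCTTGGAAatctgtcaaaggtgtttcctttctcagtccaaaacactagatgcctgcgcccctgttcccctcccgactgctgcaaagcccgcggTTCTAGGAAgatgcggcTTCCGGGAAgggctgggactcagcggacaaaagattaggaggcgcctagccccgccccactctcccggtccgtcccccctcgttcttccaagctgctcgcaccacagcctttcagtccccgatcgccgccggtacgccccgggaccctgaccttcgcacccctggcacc
Igf1: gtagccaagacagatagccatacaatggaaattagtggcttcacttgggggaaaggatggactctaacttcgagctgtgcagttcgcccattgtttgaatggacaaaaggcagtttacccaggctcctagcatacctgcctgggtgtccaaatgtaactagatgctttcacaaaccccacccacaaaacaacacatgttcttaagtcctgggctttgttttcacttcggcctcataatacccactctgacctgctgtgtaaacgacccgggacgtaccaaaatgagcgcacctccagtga
Bcl6: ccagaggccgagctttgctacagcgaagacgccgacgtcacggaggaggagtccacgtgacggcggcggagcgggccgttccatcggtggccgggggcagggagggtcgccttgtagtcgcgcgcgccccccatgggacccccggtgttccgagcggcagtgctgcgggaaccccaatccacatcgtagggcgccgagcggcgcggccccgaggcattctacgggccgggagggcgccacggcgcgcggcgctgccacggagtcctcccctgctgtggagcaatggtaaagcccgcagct
Cish held 4 matches, TTCCTGGAA, TTCTTGGAA, TTCTAGGAA and TTCCGGGAA, which begin 241, 230, 136 and 119 bases before the start. Among the 33469 rat promoters listed there, 2970 (8.87%) held at least 1 match and 2 held at least 4. The search describes letters in these windows, and STAT5 binding was not measured.

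In the livers, Cish at day 1 read 10.12, 10.46, 6.07 and 7.82 in metformin livers, against 10.52, 11.06, 8.40 and 5.31 in control livers. Values at day 3 were 5.87, 5.83, 5.54 and 6.74 in metformin livers, against 9.20, 8.54, 6.79 and 4.63 in control livers. The 4 metformin livers of day 3 sat together at the low end, and the control livers spread on both sides of them. Values at day 14 were 8.57, 5.79, 8.67 and 8.13 in metformin livers, against 10.00, 9.005, 7.20 and 7.69 in control livers, which overlap. The differences were -0.21, -1.30 and -0.68 (SE 1.15), with 95% intervals that reach from -3.69 to 1.09 at day 3 and from -3.07 to 1.71 at day 14. None was called, and without replicate 4 of the control livers the day 1 difference was -1.38 (limma adjusted p = 0.804).

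Bcl6, the repressor that opposes STAT5 at many liver genes, ranged 50.5-fold. At day 1 it read 10.20, 10.60, 10.18 and 11.49 in metformin livers, against 7.70, 9.70, 7.20 and 11.85 in control livers. The control livers of day 1 lay below all 4 metformin livers, but for replicate 4, which lay above them. At day 3 it read 7.66, 7.60, 9.33 and 9.73 in metformin livers, against 7.62, 6.46, 6.75 and 10.01 in control livers. At day 14 it read 7.55, 8.73, 8.85 and 8.05 in metformin livers, against 8.43, 7.53, 7.71 and 6.19 in control livers. The groups overlapped at each day, and the differences were 1.505, 0.87 and 0.83 (SE 0.83). Their mean over the 3 days was 1.07 ± 0.48 (log2, SE; 95% interval 0.07 to 2.07), a 2.10-fold level, and it was not called (limma adjusted p = 0.271), although 15.9% of all genes had an unadjusted p under 0.05 in that comparison and Bcl6 was the 1 axis gene among them. Without replicate 4 of the control livers the day 1 difference was 2.42 (limma adjusted p = 0.260) and the mean over the 3 days 1.37 (limma adjusted p = 0.0796). That liver had the highest Bcl6 value, so leaving it out raises the difference by construction, and metformin replicate 4, at 11.49, was kept. In metformin livers Bcl6 was 2.32 lower at day 14 than at day 1 on the log2 scale and missed the threshold (limma adjusted p = 0.0677).

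Against all tested genes, Cish, Bcl6 and Socs2 varied widely and the other axis genes much less. The SD between rats of a group was 1.78 for Cish, 1.29 for Bcl6 and 1.15 for Socs2 on the log2 scale. They ranked 7, 22 and 33 of 19686 genes in this spread, whose median was 0.168. Among genes within 0.5 of their mean log2 intensity, 99.9%, 99.9% and 99.3% had a smaller SD than Cish, Bcl6 and Socs2. Igfals, at 0.234, was above the median gene, and Igf1 (0.124), Stat5b (0.120), Ghr (0.118) and Stat5a (0.113) were below it. An SD of 1.78 corresponds to a 3.43-fold step between livers treated alike, and that of Ghr to a 1.09-fold step. When the 6 groups were ordered by mean for each gene, all 40 neighbouring pairs of groups overlapped, and neighbours in such an order are by construction the groups closest in mean.

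**Figure D3:**
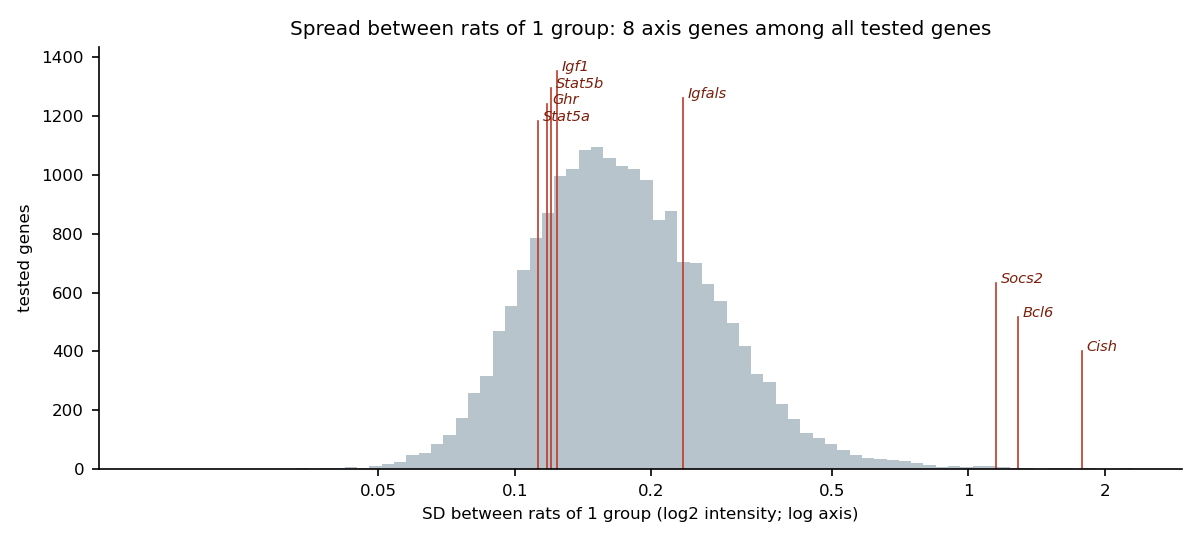
Number of tested genes by the SD of log2 intensity between rats of a group (log axis), with the 8 axis genes marked by lines. Cish, Bcl6 and Socs2 lie in the far upper tail at 1.78, 1.29 and 1.15, and Stat5a, Ghr, Stat5b and Igf1 lie below the median of 0.168.

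Whether the genes moved together was read from each liver's deviation from its group mean, over 24 livers and 28 pairs of genes, with 100000 permutations within groups. Igf1 and Igfals moved together, with r = 0.60 and rho = 0.75 (permutation p adjusted over the 28 pairs 0.0104 and 0.0084). The correlation was 0.49 in metformin livers and 0.88 in control livers, and 0.83, 0.62 and 0.83 at days 1, 3 and 14. It was 0.70 without the 2 livers farthest from the median of Igf1. It was the only pair that passed on both r and rho. The correlations of the 28 pairs were not recomputed after another normalization or set against pairs of other genes. The part of intensity shared over an array was not tested.

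Socs2 and Bcl6 moved in opposite directions, with r = -0.70 and rho = -0.58 (permutation p adjusted over the 28 pairs 0.0402 and 0.120), so that the rank correlation did not pass. The correlation was -0.91 at day 1, -0.77 at day 3 and 0.47 at day 14, -0.54 without the 2 farthest livers, and -0.51 without replicate 4 of the control livers of day 1, so it did not hold within day 14. Other replicate 4 livers also held the lowest Socs2 and highest Bcl6 of their group. They were those of metformin day 1 (8.65 and 11.49) and control day 3 (10.58 and 10.01). The correlation without them was not computed. Igfals and Socs2 gave r = 0.53 and rho = 0.53 (permutation p adjusted over the 28 pairs 0.0402 and 0.120) and 0.54, 0.42 and 0.75 at the 3 days. Stat5a and Stat5b, neighbouring genes in the rat genome, gave r = 0.67 and rho = 0.55 (permutation p adjusted over the 28 pairs 0.0498 and 0.136), with -0.08 at day 1, 0.90 at day 3 and 0.82 at day 14. The other 24 pairs did not pass on either measure.

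**Figure D4:**
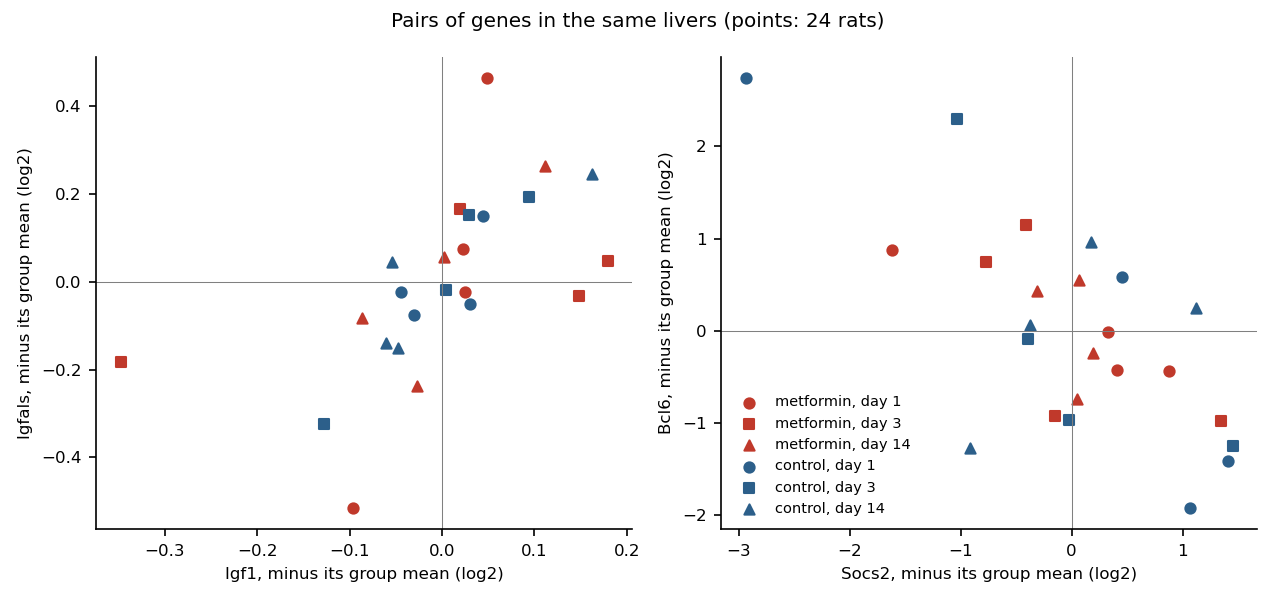
Log2 deviation of each of 24 livers from its group mean, Igfals against Igf1 on the left and Bcl6 against Socs2 on the right (colours are treatments, shapes are days). Igfals rises with Igf1 (r = 0.60), and Bcl6 falls with Socs2 (r = -0.70) with replicate 4 of the control livers of day 1 as the point at the far upper left.

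The tested genes most like each axis gene over all 24 livers are given as a description by Pearson r of log2 intensity, which includes differences between groups and arrays. Nearest to Cish were Foxa2 at 0.85, the gene of a liver pioneer factor, Zswim1 at 0.81 and Hhex at 0.79, which encodes a hepatic homeobox factor. Nearest to Socs2 were Birc2 at 0.81, Zfp455l1 at 0.79 and Onecut1 at 0.77, the gene of the liver factor HNF6 that growth hormone induces. Nearest to Bcl6 were Atf7ip at 0.80, Irak2 at 0.74 and Ifitm2 at 0.74. Igfals was nearest to Aspg at 0.79, Ass1, the urea cycle gene of argininosuccinate synthase, at 0.77 and Nfil3 at 0.75. Igf1 was nearest to Abhd2 at 0.72, Ndfip1 at 0.68 and Gas6 at 0.68, and Ghr to Orm1, Zic5 and Pgk2 at 0.63 each. Stat5a was nearest to Tpcn1 at 0.90, Mink1 at 0.89 and Sidt2 at 0.88, and Stat5b to Ciao3 and P3h1 at 0.83 each and Apob at 0.82. On deviations from the group means r was 0.41 for Igfals with Ass1, 0.37 for Igfals with Nfil3 and 0.30 for Ghr with Orm1, and 0.55 to 0.86 for the other 21 pairs.

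Around the axis genes, growth hormone receptor signalling and its brakes were represented by 19 tested genes, of which 0, 0 and 4 were called at days 1, 3 and 14, beside 0.0152%, 0.254% and 3.29% of all genes. All 4 were lower, as were 1.22% of all genes. The median difference of the 19 genes at day 14 was -0.03, beside 0.01 over all genes. At an unadjusted p under 0.05 limma counted 8, 3 and 6 of the 19 at days 1, 3 and 14, beside 8.22%, 13.6% and 16.8% of all genes. At day 1, 16 of the 19 were higher in metformin livers, and at day 14, 8 were. Stat6, a STAT best known for interleukin-4 signals, read 9.11, 9.13, 8.99 and 8.64 in metformin livers of day 14, against 9.88, 9.60, 9.42 and 10.11 in control livers. The difference was -0.78 ± 0.17 (log2, SE), a 0.581-fold level (limma adjusted p = 0.0133), and no metformin liver reached a control liver. Pias1, a SUMO ligase that restrains STAT proteins, read 9.62, 9.48, 9.58 and 9.33 in metformin livers, against 9.96, 9.91, 9.73 and 9.89 in control livers (-0.37 ± 0.08, limma adjusted p = 0.0156). Irs2, a docking protein of the insulin and IGF1 receptors, read 6.51, 6.71, 6.67 and 6.29 in metformin livers, against 8.29, 7.27, 7.59 and 7.53 in control livers. It fell to a 0.459-fold level (-1.12 ± 0.29, limma adjusted p = 0.0361). Irs1, its relative, read 9.89, 9.38, 10.17 and 9.88 in metformin livers, against 10.81, 10.50, 10.34 and 10.28 in control livers (-0.65 ± 0.17, limma adjusted p = 0.0422). The calls depended on 1 array at a time. That of Irs2 was lost without metformin replicate 2, 3 or 4 or control replicate 1, 3 or 4, that of Irs1 without metformin replicate 2 or 4 or control replicate 1, 2 or 4, that of Stat6 without metformin replicate 4 or control replicate 1 or 4, and that of Pias1 without metformin replicate 4 or control replicate 1. Adjusted p then reached 0.155 for Irs2, 0.168 for Irs1, 0.0604 for Stat6 and 0.0699 for Pias1, and the differences stayed between -1.26 and -0.92, -0.76 and -0.50, -0.89 and -0.67, and -0.42 and -0.31.

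For Stat6, Irs1 and Pias1 the metformin effect itself differed between days 14 and 1. Each had a higher mean in metformin livers at day 1, with no call, and a lower one at day 14. Stat6 at day 1 read 10.03, 9.98, 9.93 and 10.29 in metformin livers, against 9.43, 9.56, 9.46 and 10.19 in control livers, which overlap. Pias1 at day 1 read 10.09, 10.01, 9.95 and 10.11 in metformin livers, all above the 9.79, 9.81, 9.82 and 9.84 of control livers. At day 1 Irs1 read 10.45, 10.45, 10.58 and 10.64 in metformin livers, all above the 9.66, 9.86, 9.64 and 10.36 of control livers, a difference of 0.65 ± 0.17 that was not called (limma adjusted p = 0.245), and without control replicate 4 it was 0.81 (limma adjusted p = 0.0817). The effect of day 14 minus that of day 1 was -1.30 ± 0.25 for Irs1, -1.18 ± 0.24 for Stat6 and -0.59 ± 0.11 for Pias1 (log2, SE; limma adjusted p = 0.0116, 0.0154 and 0.0125), and these calls held without each of the 16 arrays. Testing every probe set ended those of Stat6 and Pias1 (limma adjusted p = 0.0534 and 0.0699). Jak2, the kinase of the receptor, differed by -0.16 ± 0.11 at day 14 and was not called (limma adjusted p = 0.498). Socs3, an inhibitor induced by cytokines and growth hormone, differed by -0.77 ± 0.27 and was not called (limma adjusted p = 0.126), and without control replicate 2 it was -0.999 with an adjusted p of 0.0473.

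Of 14 genes of IGF receptors, IGF2 and IGF-binding proteins, 1 was called at day 14, lower, beside 1.22% of all genes called lower, and 0 were called at days 1 and 3, beside 0.0152% and 0.254% of all genes called. Igfbp1, a binding protein that insulin represses in liver and that limits free IGF1, read 7.59, 10.65, 7.52 and 6.97 in metformin livers of day 14, against 12.10, 9.90, 12.33 and 13.21 in control livers. Metformin replicate 2 lay above the lowest control liver, so the groups overlapped, while the other 3 metformin livers lay below all control livers. The difference was -3.71 ± 0.99 (log2, SE), a 0.0766-fold level (limma adjusted p = 0.0414). At days 1 and 3 it differed by -1.43 and -1.42 and was not called (-1.62 at day 1 without control replicate 4), and the mean over the 3 days was -2.19 ± 0.57 (limma adjusted p = 0.0374). The call of day 14 was lost without metformin replicate 1, 3 or 4 or control replicate 1, 3 or 4, with differences from -4.53 to -3.26 and adjusted p up to 0.132, and that of the mean was lost without any of 13 of the 24 arrays. At day 14 Igf1r, the IGF1 receptor, differed by -0.04, Igfbp2 by 0.17 and Igfbp3, the main carrier of IGF1 in blood, by -0.28, with adjusted p of 0.864, 0.717 and 0.574 in limma.

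**Figure D5:**
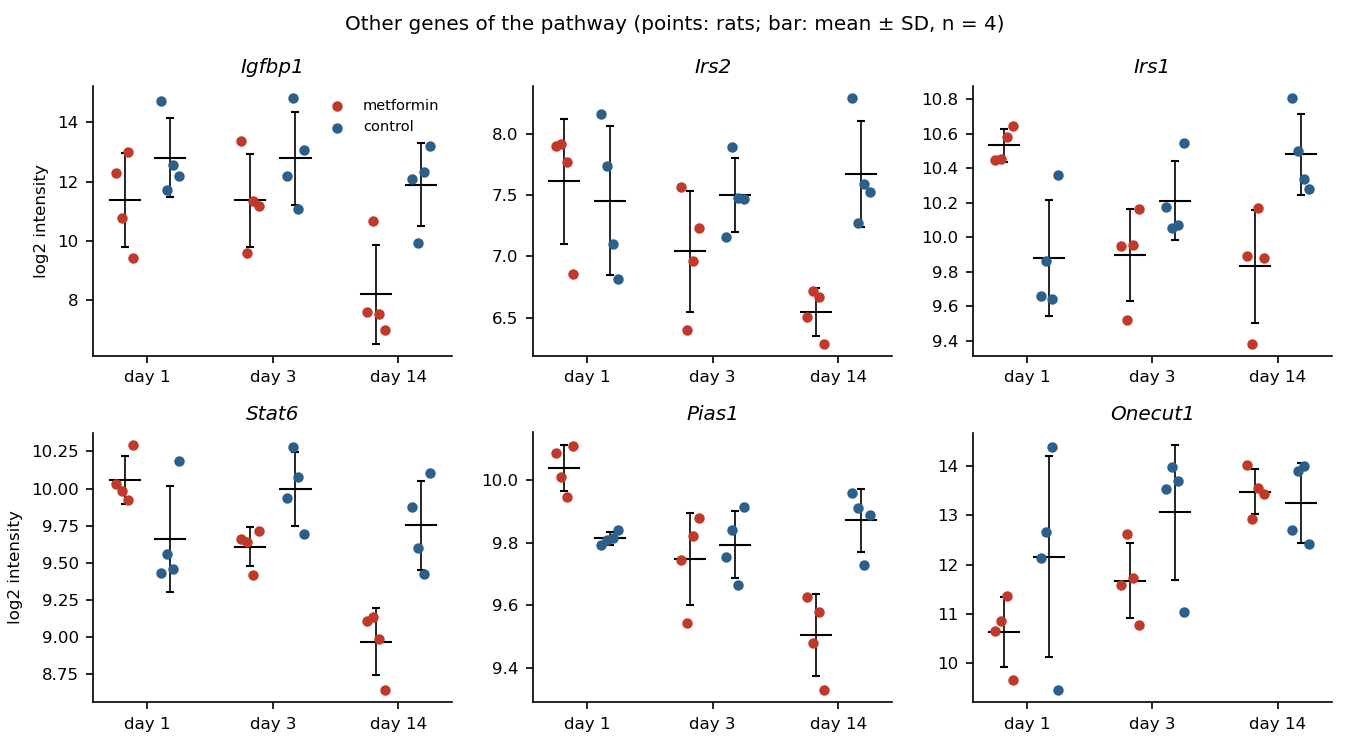
Log2 intensity of Igfbp1, Irs2, Irs1, Stat6, Pias1 and Onecut1 in 24 livers by day, metformin left of control (points are rats, bars are mean ± SD, n = 4). At day 14 the 4 metformin livers lie below the 4 control livers for Irs2, Irs1, Stat6 and Pias1. Onecut1 spans 9.45 to 14.39 among control livers of day 1 and 11.03 to 13.99 among those of day 3, with replicate 4 the lowest at both days. Replicate 4 is also the lowest among metformin livers of days 1 and 3 (9.66 and 10.77) and control livers of day 14 (12.41).

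Sex-biased liver genes, which follow the temporal pattern of growth hormone in rats, had no call, as had the transcription factor genes of growth hormone action. Called were 0 of 5 male-biased, 0 of 6 female-biased and 0 of 11 transcription factor genes tested at each day, and with 0.0152%, 0.254% and 3.29% of all genes called at days 1, 3 and 14, counts of 0 in lists of this size are near the background. Cyp2c11 read 18.31, 18.09, 18.05 and 17.997 in metformin livers of day 1, against 18.49, 18.98, 18.82 and 16.83 in control livers. The difference was -0.17, and without control replicate 4 it was -0.65 (limma adjusted p = 0.9503 and 0.133). At days 3 and 14 it was -0.32 and -0.29, with adjusted p of 0.645 and 0.706 in limma. Onecut1 differed by -1.53, -1.39 and 0.23 at days 1, 3 and 14 (SE 0.75), and by -2.43 at day 1 without control replicate 4 (limma adjusted p = 0.165). Cux2, a female-specific repressor, differed by 0.00356 at day 14, a direction that turned under other scalings, and Cyp4a2, a fatty acid hydroxylase, by 1.22, 1.14 and 0.83 at days 1, 3 and 14 with no call (0.89 at day 1 without control replicate 4). The 6 other growth hormone-induced genes and the 7 partners and relatives of BCL6 tested likewise had 0 calls within a day. Bcor, the gene of a corepressor that BCL6 recruits, rose by 0.27 ± 0.07 over the mean of the 3 days (log2, SE; limma adjusted p = 0.0431), a call lost without any of 17 of the 24 arrays. For Cul3, a ubiquitin ligase scaffold, the metformin effect was 0.55 ± 0.12 larger at day 14 than at day 1 (limma adjusted p = 0.0258), which was lost without metformin replicate 4 of day 14, control replicate 1 of day 14 or control replicate 2 or 3 of day 1 (0.49 to 0.63 over the fits that leave out 1 array, adjusted p up to 0.0634).

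In whole liver, fewer cells of a type and less RNA per cell cannot be told apart. Markers of other liver cells differed in level beside these results, and none was called between metformin and control livers within a day. At day 1, 9 of 10 Kupffer cell markers (median 0.21) and 9 of 10 markers of sinusoidal endothelium (median 0.08) were higher in metformin livers. All 10 Kupffer cell markers were lower in metformin livers at day 3 (median -0.50) and at day 14 (median -0.17). All 10 markers of sinusoidal endothelium were lower at day 14 (median -0.21). Of 10 stellate cell markers 5, 2 and 1 were higher in metformin livers at days 1, 3 and 14 (median -0.01, -0.17 and -0.17). The summed intensity of the Kupffer cell markers at day 14 was 14127 to 19718 in metformin livers and 9501 to 25339 in control livers. That of the endothelial markers was 17688 to 30076 in metformin livers and 18549 to 33636 in control livers, and the log2 of that of the 9 hepatocyte markers was 21.63 to 21.76 in metformin livers and 21.70 to 21.82 in control livers. None of these markers lay below the filter. Their part in the differences at day 14 was not tested.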

How the data were processed

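RNA of 24 rat livers was measured on 24 Affymetrix arrays. The values deposited are linear intensity per probe set, made by the authors with RMA, per the submitters' processing notes. The intensities reached 982564 to 994415 per array, and no source states the change of scale behind this, so folds hold on the deposited scale. For each array the log2 of the deposited intensity was taken. Of 68842 probe sets 23446 named a single gene in the platform annotation, 505 several and 44891 none. Each gene was represented by its probe set of highest mean (22093 genes), and 19686 genes exceeded an intensity of 19.475, percentile 30 of all values, on 4 or more arrays.

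The 6 groups were fitted in limma 3.58.1 (R 4.3.3) with lmFit and eBayes, and p-values were adjusted by Benjamini-Hochberg over all tested genes. The fit was run on simulated data with independent normal values and the same SD of a gene in every group. That setting does not cover single extreme livers or groups of unequal spread, as seen for Cish, Socs2 and Bcl6. Each group is 4 rats, and this number limits the precision. Comparisons between days within metformin livers and the check of 1 control liver were added after seeing the data. The 8 genes and all lists were chosen with earlier results of these data known. The named genes are the 8, every listed gene called within a day or otherwise up to 3 with the smallest p, and Jak2, Socs3, Igf1r, Igfbp1, Igfbp2, Igfbp3, Cyp2c11, Cux2 and Onecut1. Bcor, Cul3 and the genes of the control liver that stood apart were chosen after their values were seen. Deviations from the group mean, over all tested genes, were correlated between same-numbered metformin and control livers of a day. The correlations ran from -0.0536 to 0.0939, so over all genes the replicate numbers showed no pairing. Single genes can differ from this. Replicate 4 had the highest Bcl6 of its group at days 1 and 3 (11.85 and 10.01 in control, 11.49 and 9.73 in metformin livers). At day 14 it did not (6.19 and 8.05). Replicate 4 also had the lowest Onecut1 of its group at days 1 and 3 in both treatments, and at day 14 in control livers only. A link between same-numbered livers in few genes was not tested. Some other genes of these lists are not reported here.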

Additional observations from a re-analysis of the deposited data

Results flagged for a closer look

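Igf1 in control livers of day 14 had 1 value far from the others: replicate 3, at 18.755 log2 intensity, lay above 18.54, 18.54 and 18.53 in the other 3. Its gap to the nearest value was 0.943 of the range of the group, above Dixon's 95% critical value for 4 samples. It was the only 1 of 48 gene and group combinations so marked, and chance marks about 1 in 20 such groups.

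For 4 genes around the axis the metformin effect differed between days 14 and 1 by the interaction term of the limma fit. Day 14 minus day 1 was -1.30 ± 0.25 for Irs1, -1.18 ± 0.24 for Stat6, -0.594 ± 0.115 for Pias1 and 0.546 ± 0.121 for Cul3 (log2, SE), with adjusted p of 0.0116, 0.0154, 0.0125 and 0.0258.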

How the results depend on the processing

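The number of axis genes called in comparisons of metformin with control stayed at 0 under every setting run except at day 14 leaving out 1 array, which gave 0 to 1 (Stat5b, without metformin replicate 1). In metformin livers at day 14 against day 1 it was 2 in place of 1 with the filter at the median or a pseudocount of 16 (Stat5b added) and with another quantile normalization or cyclic loess (Ghr added), and 1 to 2 leaving out 1 array. At day 14 against day 3 it was 0 in place of 1 with every probe set tested, in both metformin and control livers, and 0 to 1 leaving out 1 array. In metformin livers at day 3 against day 1 it was 1 in place of 0 after another quantile normalization or cyclic loess (Stat5a). In control livers at day 14 against day 1 it was 1 in place of 0 after another quantile normalization and in the fit with a replicate block. Igfals had a limma adjusted p of 0.0441 with the block. Whether same-numbered livers share more than their number in single genes was not tested. Calls between metformin and control around the axis ended as follows (limma adjusted p). At day 14 that of Irs1 ended without the low-intensity filter (0.0503), after another quantile normalization (0.0521) and after cyclic loess (0.0507). Testing every probe set ended the day 14 calls of Igfbp1 (0.101), Irs1 (0.113), Irs2 (0.0924) and Pias1 (0.0689), and a fit on the arrays of day 14 alone those of Igfbp1 (0.113), Stat6 (0.0888), Irs1 (0.155), Irs2 (0.0670) and Pias1 (0.148). Over the mean of the 3 days Bcor was not called without the filter (0.0512), with every probe set (0.128), after quantiles (0.0734) or after loess (0.06999), nor Igfbp1 with every probe set (0.0905). Day 14 minus day 1 of the effect was not called with every probe set for Stat6 (0.0534), Pias1 (0.0699) and Cul3 (0.110), nor for Cul3 on the arrays of those days (0.0692). With the replicate block Igfbp1 was no longer called at day 14 (-3.71, limma adjusted p = 0.0554) or over the 3 days (0.0501). The causes were not tested. Over all genes the calls at day 1 were 3, and 0 to 14 elsewhere, at day 3 50, and 0 to 372, and at day 14 648, and 48 to 968. The sign turned with arrays centred on their median for Stat5b (metformin minus control, day 1) at -0.00644, Ghr (metformin minus control, day 3) at 0.00505, Cux2 (metformin minus control, day 14) at -0.00194, Stat5b (metformin effect, day 3 minus day 1) at 0.000551, Stat5b (control livers, day 14 minus day 1) at 0.0139. The sign turned after another quantile normalization for Stat5b (metformin minus control, day 1) at -0.0543, Ghr (metformin minus control, day 14) at 0.0441, Cux2 (metformin minus control, day 14) at -0.0160, Igf1 (metformin effect, day 14 minus day 3) at 0.13, Ghr (metformin effect, day 14 minus day 3) at 0.0718, Stat5a (metformin effect, day 14 minus day 3) at 0.00540, Bcl6 (metformin effect, day 14 minus day 3) at 0.0178, Stat5b (control livers, day 14 minus day 1) at 0.0181, Igf1 (control livers, day 14 minus day 3) at -0.0509, Igf1 (metformin livers, day 14 minus day 3) at 0.0758. The sign turned after cyclic loess for Stat5b (metformin minus control, day 1) at -0.0418, Cux2 (metformin minus control, day 14) at -0.00527, Igf1 (metformin effect, day 14 minus day 3) at 0.0377, Ghr (metformin effect, day 14 minus day 3) at 0.0176, Stat5a (metformin effect, day 14 minus day 3) at 0.0105, Bcl6 (metformin effect, day 14 minus day 3) at 0.0216, Stat5b (control livers, day 14 minus day 1) at 0.00884, Igf1 (metformin livers, day 14 minus day 3) at 0.0795. Leaving out 1 array turned the sign of small or widely spread values, with ranges for metformin minus control, day 1, Socs2 from -1.18 to 0.34, Cish from -1.38 to 0.64, Stat5b from -0.0325 to 0.0340, Cyp2c11 from -0.65 to 0.0667; for metformin minus control, mean of 3 days, Igfals from -0.0789 to 0.0298; for metformin effect, day 3 minus day 1, Socs2 from -1.16 to 0.36, Cish from -1.98 to 0.0814, Stat5b from -0.12 to 0.0160, Bcl6 from -1.55 to 0.13; for metformin effect, day 14 minus day 1, Ghr from -0.0324 to 0.0779, Socs2 from -0.96 to 0.56, Cish from -1.33 to 0.69; for control livers, day 3 minus day 1, Igf1 from -0.00184 to 0.0718, Igfals from -0.17 to 0.00280, Stat5b from -0.10 to 0.0394; for control livers, day 14 minus day 1, Cish from -1.52 to 0.40, Stat5b from -0.0390 to 0.00852; for metformin minus control, day 3, Ghr from -0.10 to 0.0130, Stat5b from -0.12 to 0.0215; for metformin effect, day 14 minus day 3, Igf1 from -0.17 to 0.00959, Igfals from -0.19 to 0.00625, Ghr from -0.12 to 0.00657, Socs2 from -0.28 to 0.65, Cish from -0.0253 to 1.498, Stat5a from -0.10 to 0.0397, Bcl6 from -0.80 to 0.38; for control livers, day 14 minus day 3, Igf1 from -0.00577 to 0.0797, Socs2 from -0.33 to 0.53, Stat5b from -0.0521 to 0.0845, Bcl6 from -0.67 to 0.51; for metformin minus control, day 14, Igf1r from -0.0657 to 0.00746, Cux2 from -0.0248 to 0.0265, Onecut1 from -0.0500 to 0.48; for metformin livers, day 3 minus day 1, Ghr from -0.0471 to 0.0619, Socs2 from -0.0170 to 0.81; for metformin livers, day 14 minus day 3, Igf1 from -0.12 to 0.0580, Socs2 from -0.00775 to 0.70, Bcl6 from -0.61 to 0.10. The 4 rats per group and the wide spread of Socs2, Cish and Bcl6 limit what could be called. The mean of the 3 days has no fit on the arrays of the days compared, since it uses all arrays.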
